A study of Homo sapiens with 4 samples.

Results

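The 9 genes below belong to the type I interferon and double-stranded RNA (dsRNA) response, and they are described in human neuroblastoma cells that carry a wild-type or a mutant form of the transcription elongation factor IWS1. They are EIF2AK2, ADAR, IFI6, STAT2, IRF3, IRF9, IFNAR1, IFNAR2 and MAVS, chosen by symbol with earlier results of these data known. All 9 were found among the 28063 genes counted in each library, and all 9 passed the filter on low counts that left 14141 genes to test.

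KELLY cells are an established neuroblastoma line with amplified MYCN. Both groups were grown in medium with fetal bovine serum, received a lentiviral vector, were selected with puromycin at 1 ug/ml and were collected at 50% confluency for poly(A) RNA sequencing. The vector carried FLAG-tagged IWS1, as the wild-type protein in the WT group (2 libraries) or with its TIM3 motif disrupted in the M3 group (2 libraries), and the series asks what such motifs do. The labels do not say whether the cells' own IWS1 was still made, or whether each group was a pool or a clone, and untransduced cells were not analysed here. Nor do they say that the 2 libraries of a group are from different cultures. The p-values therefore reflect the spread of these 4 libraries alone, and that spread may be purely technical. It was unequal. Scored by chi-square divided by its degrees of freedom, the WT libraries differed from each other by 22.4 and the M3 libraries by 4.45. Across groups the score ran from 23.6 (WT library 2 with M3 library 2) to 72.1 (WT library 1 with M3 library 1). The WT libraries thus differed nearly as much as the closest pair across groups, and the cause was not tested.

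Cells meet dsRNA mostly as a sign of viral infection, although some of their own transcripts can also pair into it. Sensors of the RIG-I family signal through MAVS on mitochondria to the transcription factor IRF3, which helps to switch on interferon genes. Secreted interferon binds the IFNAR1 and IFNAR2 receptor chains, and a complex that includes STAT2 and IRF9 then binds interferon-stimulated response elements in target promoters. EIF2AK2, ADAR and IFI6 are among those targets, and EIF2AK2 and ADAR also bind dsRNA themselves.

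The libraries held 12289685 to 20962372 reads assigned to genes. IWS1 itself stood at 370 and 394 CPM (read counts scaled to library size) in WT and at 596 and 599 CPM in M3 (log2 difference 0.65 ± 0.12 SE, edgeR adjusted p = 0.0225), a reading that cannot show which form a library carries. All 8 markers of neuroblastoma cells were detected in every library, and they summed to 6023 to 6307 CPM in WT and to 4915 to 4957 CPM in M3. The 8 immune markers summed to 85.7 to 108 CPM in WT and to 78.6 to 83.0 CPM in M3, nearly all of it from CD74, while PTPRC, the pan-leukocyte marker, had 0 or 1 read per library, and CD3E and AIF1 had 0 reads in all 4. The 8 fibroblast and endothelial markers summed to 95.1 and 95.2 CPM in WT and to 125 CPM in both M3 libraries, mostly from PDGFRB, and the 5 epithelial markers stayed between 2.91 and 6.97 CPM. The part of these markers in the results below was not tested. Because the samples are bulk RNA, fewer cells that express a gene and less RNA per cell cannot be told apart.

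M3 and WT cells differed in 3 of the 9 genes. EIF2AK2, the dsRNA-activated kinase also known as PKR, was 1.99-fold higher in M3. MAVS and IFI6 were lower in M3, by 1.49-fold and 1.66-fold as WT over M3. The remaining 6 did not pass an edgeR quasi-likelihood test with Benjamini-Hochberg adjustment at 0.05 over all genes. Among all genes tested, 15.8% passed, 9.16% as higher in M3 and 6.63% as lower. The median log2 difference of the 9 was -0.32, beside -0.0065 over all genes tested.

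**Figure D1:**
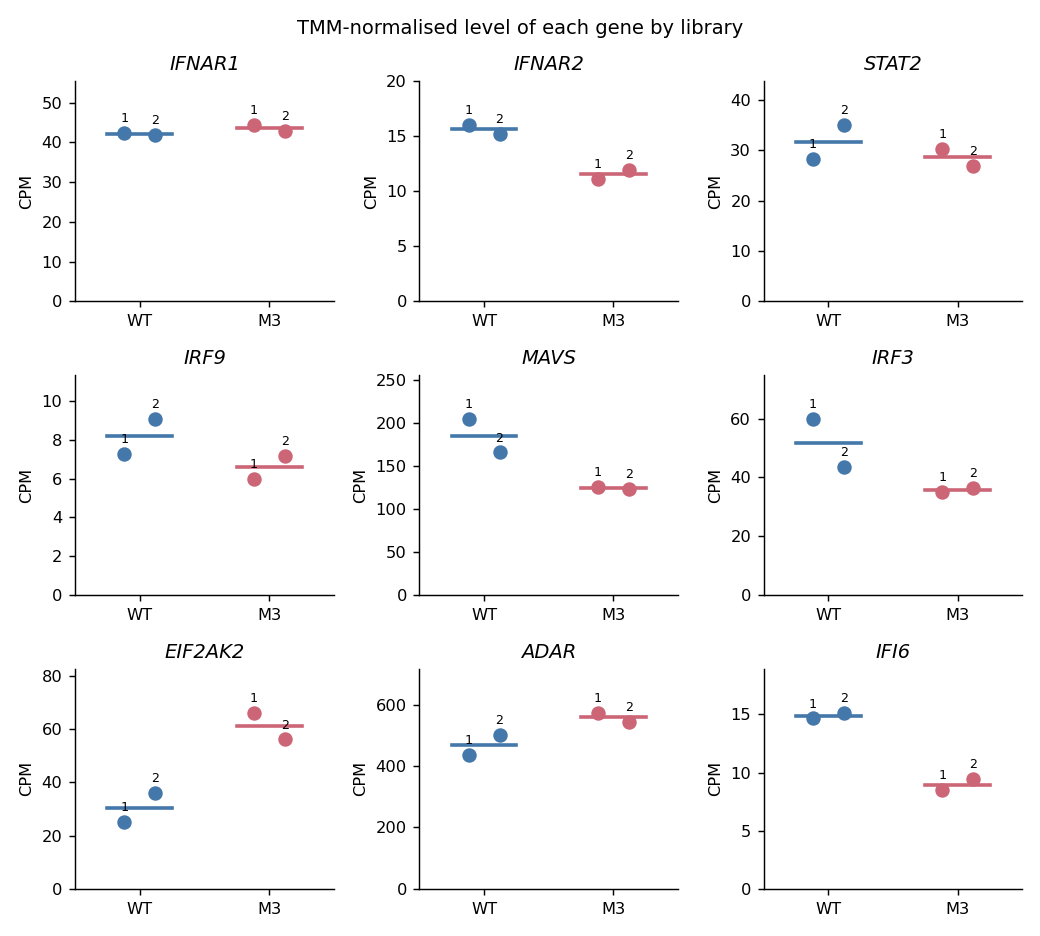
Level of each of the 9 genes in each library, in TMM-normalised CPM on a linear axis, with 1 point per library and a line at each group's mean. Relative to its WT level, EIF2AK2 rises most, from 25.1 and 36.0 CPM in WT to 66.2 and 56.2 CPM in M3.

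EIF2AK2 (chr2:37099210-37157065, minus strand, GRCh38, as all gene positions here) phosphorylates the translation factor eIF2 when dsRNA is bound, which slows protein synthesis. It stood at 25.1 and 36.0 CPM in WT and at 66.2 and 56.2 CPM in M3, from 314 and 758 reads and from 850 and 792 reads. Both M3 libraries were above both WT libraries, and the gap within WT was wider, relative to its level, than the gap within M3. The means were 30.6 ± 7.68 CPM in WT and 61.2 ± 7.09 CPM in M3 (SD, n = 2 each). The log2 difference was 0.99 ± 0.19 (SE), with a 95% interval from 0.57 to 1.41 and an edgeR adjusted p of 0.0224. The difference fell to 0.32 (adjusted p = 0.102) once the trends of the fold change with transcript length and GC content were removed, and stood at 0.49 (adjusted p = 0.0467) when the median transcript length was used for that.

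IFI6 (chr1:27666061-27672218, minus strand) encodes a small interferon-induced membrane protein that limits apoptosis. It stood at 14.7 and 15.2 CPM in WT and at 8.49 and 9.44 CPM in M3, from 109 to 319 reads. The groups did not overlap, and the libraries of each group lay close together. The log2 difference was -0.73 ± 0.17 (edgeR adjusted p = 0.0319). It was -0.32 (adjusted p = 0.295) after removal of the length and GC trends, and its adjusted p was 0.269 without M3 library 1 and 0.0882 without M3 library 2. With total gene counts as the scale it was -0.62 (adjusted p = 0.0702).

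EIF2AK2 and IFI6 are both textbook interferon targets and moved in opposite directions. Their promoters are shown because each holds the letters of an interferon-stimulated response element. The motif searched was GAAA, any 2 bases and GAAA again, on both strands, from 250 bases before to 50 bases after each start site in the RefSeq table of GRCh38.p14. It occurred in 1255 of 35116 promoters (3.57%), and in 2 of the 7 member genes that the table lists. Capitals mark the motif, each sequence is read 5′ to 3′ on the gene's own strand, and a match in letters is not a measurement of binding. EIF2AK2 (chr2:37156956-37157100, minus strand) holds 1 copy across its start site, and IFI6 (chr1:27672248-27672372, minus strand) holds 3 copies upstream. OAS3 (chr12:112938424-112938485, plus strand), which makes the activator of RNase L, is shown because it holds the same 10 letters as EIF2AK2. Another copy of the motif in OAS3, with other middle bases, lies at -143 to -134 from its start site, outside the stretch shown. IFI27 (chr14:94110608-94110667, plus strand), a relative of IFI6, holds a copy identical to 2 of the 3 in IFI6 and another on the opposite strand.
EIF2AK2: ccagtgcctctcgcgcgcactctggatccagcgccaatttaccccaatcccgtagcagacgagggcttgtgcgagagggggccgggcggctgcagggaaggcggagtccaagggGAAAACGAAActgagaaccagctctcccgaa
IFI6: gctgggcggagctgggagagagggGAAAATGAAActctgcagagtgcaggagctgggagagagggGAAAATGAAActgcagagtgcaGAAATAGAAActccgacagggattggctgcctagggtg
OAS3: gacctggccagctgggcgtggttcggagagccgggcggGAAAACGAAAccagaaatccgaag
IFI27: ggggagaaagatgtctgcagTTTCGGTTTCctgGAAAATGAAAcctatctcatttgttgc

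OAS3 stood at 18.3 and 27.7 CPM in WT and at 24.4 and 25 CPM in M3 (log2 difference 0.09 ± 0.20, edgeR adjusted p = 0.771), so its groups overlapped while those of EIF2AK2 did not. IFI27 had 0 and 5 reads in WT and 1 and 0 in M3 and was not tested. Across the 375 tested genes with the motif, the median log2 difference was 0.12, and 9.60% were higher and 5.33% lower in M3. Across the 10660 tested genes with a listed promoter, the median was -0.0085, and 9.67% were higher and 6.72% lower in M3. Of these 10660 genes, 16.4% passed the test, beside 14.9% of those with the motif.

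ADAR (chr1:154582057-154628013, minus strand) edits adenosine to inosine in dsRNA, which keeps cellular dsRNA from being sensed. It stood at 436 and 500 CPM in WT and at 574 and 545 CPM in M3. Both M3 libraries were higher, but the log2 difference of 0.26 ± 0.13 (95% interval -0.05 to 0.56) had an edgeR adjusted p of 0.198. Without WT library 2 it was 0.35 (adjusted p = 0.0013). With the length and GC trends removed it was 0.01, and -0.04 (adjusted p = 0.848) with the median transcript length.

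MAVS (chr20:3846799-3876123, plus strand) is the mitochondrial adaptor that passes the signal of RIG-I and MDA5 on to the kinases of IRF3. It stood at 205 and 166 CPM in WT and at 125 and 123 CPM in M3, from 1607 to 3491 reads. The M3 libraries were nearly equal, the WT libraries were apart, and the groups did not overlap. The means were 185 ± 27.5 CPM and 124 ± 1.63 CPM (SD, n = 2 each), and the log2 difference was -0.58 ± 0.13 (95% interval -0.88 to -0.27, edgeR adjusted p = 0.0315). Its principal transcript, of 11714 nt, put MAVS in the longest quintile of tested genes, where 27.2% of genes were higher in M3 and 21 of 2742 (0.766%) were lower. Its log2 difference became -0.95 (adjusted p = 0.0636) without the length and GC trends and -0.92 (adjusted p = 0.0025) when the replicate block was added to that. Its adjusted p was 0.0546 on total gene counts, 0.227 without M3 library 1 and 0.168 without M3 library 2.

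IRF3 (chr19:49659569-49665875, minus strand) is the transcription factor that is phosphorylated downstream of MAVS. It stood at 59.9 and 43.5 CPM in WT and at 35.2 and 36.4 CPM in M3. Both WT libraries were higher than both M3 libraries, but WT library 1 was well above WT library 2. The log2 difference was -0.52 ± 0.17 (95% interval -0.91 to -0.14) with an edgeR adjusted p of 0.0659. It was -0.75 (adjusted p = 4.47e-08) without WT library 2 and -0.29 without WT library 1. It was -0.13 (adjusted p = 0.551) with length and GC trends removed. Of the exonic bases of IRF3, 19.3% also lie in exons of another gene, BCL2L12, on the opposite strand. BCL2L12 stood at 28.7 and 22.5 CPM in WT and at 14.1 and 18.5 CPM in M3 (log2 difference -0.64 ± 0.19, adjusted p = 0.0538), and since the strand setting of the counting is not given, reads of this overlap cannot be told apart.

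STAT2 (chr12:56341597-56360155, minus strand) and IRF9 (chr14:24161053-24166565, plus strand) are subunits of the transcription factor complex that carries the interferon signal to the nucleus. STAT2 stood at 28.3 and 35 CPM in WT and at 30.3 and 26.9 CPM in M3, and its groups overlapped (log2 difference -0.15 ± 0.16, 95% interval -0.51 to 0.21, edgeR adjusted p = 0.514). IRF9 stood at 7.29 and 9.07 CPM in WT and at 6.0 and 7.17 CPM in M3, from 77 to 191 reads. Its WT libraries were just above its M3 libraries, and its log2 difference of -0.32 ± 0.22 had an edgeR adjusted p of 0.322. IRF9 was at -0.05 (adjusted p = 0.927) with length and GC trends removed. Of its exonic bases, 48.4% are shared with another gene model on the same strand, so its counts are uncertain.

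IFNAR1 (chr21:33324477-33359862, plus strand) and IFNAR2 (chr21:33229901-33265675, plus strand) are the chains of the type I interferon receptor. IFNAR1 stood at 42.4 and 41.8 CPM in WT and at 44.3 and 42.8 CPM in M3. The difference of the group means was smaller than the gap between the M3 libraries (log2 difference 0.05 ± 0.13, 95% interval -0.24 to 0.34, edgeR adjusted p = 0.814). IFNAR2 stood at 16.0 and 15.2 CPM in WT and at 11.1 and 11.9 CPM in M3. Both WT libraries were higher for IFNAR2, and its log2 difference was -0.44 ± 0.16 (95% interval -0.81 to -0.06, edgeR adjusted p = 0.0953). Of the exonic bases of IFNAR2, 83.2% are shared with other gene models, so its counts are uncertain. The log2 difference of IFNAR1 was -0.34 (adjusted p = 0.113) with the length and GC trends removed.

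**Figure D2:**
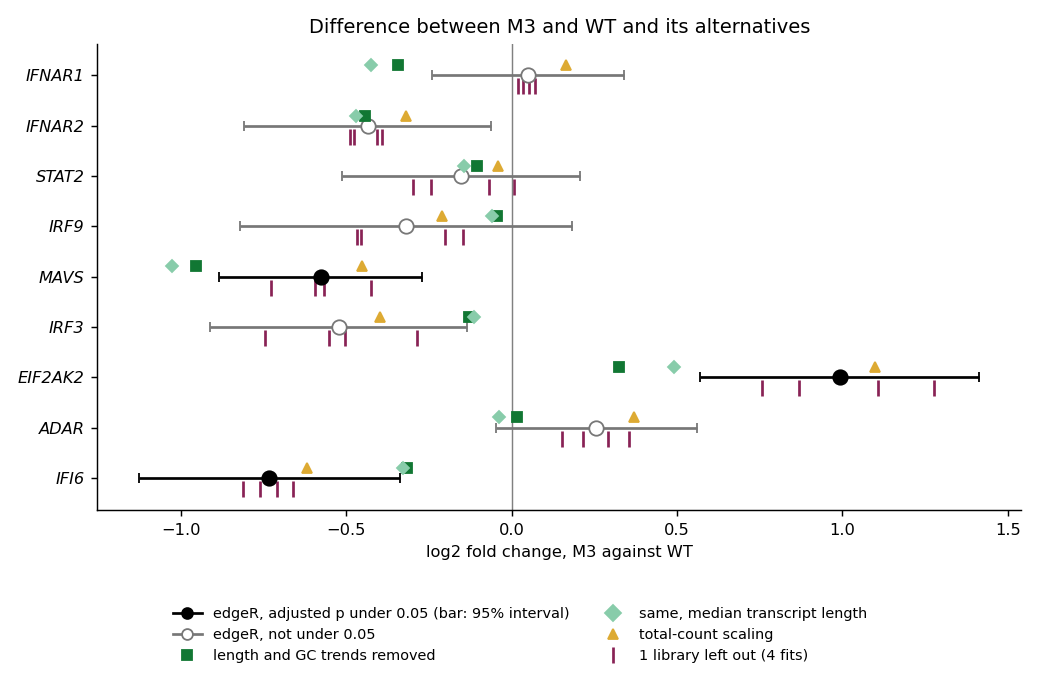
Log2 difference of M3 minus WT for the 9 genes: circles with 95% intervals are the edgeR fit (filled where adjusted p is under 0.05), squares and diamonds the fits with length and GC trends removed, triangles total-count scaling, and ticks the 4 fits with 1 library left out. In the squares, EIF2AK2 moves from 0.99 to 0.32, MAVS from -0.58 to -0.95 and IFNAR1 from 0.05 to -0.34.

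Without regard to the test, the groups did not overlap for 8 of the 9 genes, beside 68.2% of all genes tested. EIF2AK2, ADAR and IFNAR1 were higher in both M3 libraries, beside 34% of all genes, and IFI6, IRF3, IRF9, IFNAR2 and MAVS were lower in both, beside 34.1%.

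The fold change varied with transcript length across all genes. In the shortest quintile of tested genes (53 to 1778 nt) the median log2 difference was -0.35, and in the longest quintile (5439 to 101518 nt) it was 0.40. IFI6 and IRF3 belong to the shortest quintile, and EIF2AK2, ADAR, IFNAR1 and MAVS to the longest. Of the genes in the shortest quintile, 1.53% were higher and 18.1% lower in M3. Which transcript of each gene is in use was not measured, and the length of EIF2AK2 is 10042 nt for its principal transcript but 4343 nt at the median of its transcripts.

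**Figure D3:**
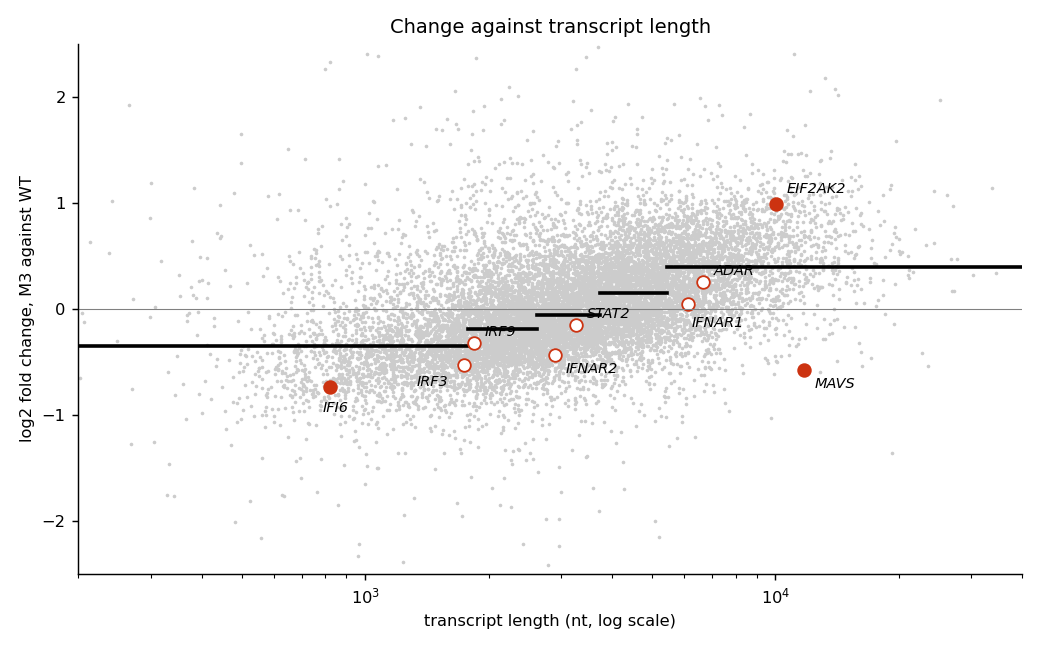
Log2 difference of M3 minus WT for tested genes against the length of the principal transcript in nucleotides (log axis), with a line at the median of each length quintile and red circles for the 9 genes, filled where they passed the test. Points beyond the axis limits are not drawn. The quintile medians rise from -0.35 to 0.40, and MAVS lies below zero among the longest genes.

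Compared per kilobase of principal transcript, ADAR was the most abundant of the 9 in both groups, with a mean of 70.2 CPM per kb in WT and 83.9 in M3. In WT the order of mean CPM per kb ran from ADAR through IRF3 (29.7), IFI6 (18.1), MAVS (15.8), STAT2 (9.72), IFNAR1 (6.86), IFNAR2 (5.39) and IRF9 (4.45) to EIF2AK2 (3.04), and no neighbours in this order overlapped between libraries. In M3 the order was ADAR, IRF3 (20.6), IFI6 (10.9), MAVS (10.6), STAT2 (8.78), IFNAR1 (7.10), EIF2AK2 (6.10), IFNAR2 (3.98) and IRF9 (3.58). There IFI6 and MAVS overlapped, as did IFNAR2 and IRF9. On these lengths EIF2AK2 was the least abundant of the 9 in WT, a rank that depends on the transcript assumed. Per kilobase of the median transcript length, it stood at 7.04 in WT, above IFNAR1 (6.86), IFNAR2 (6.0) and IRF9 (5.07), and at 14.1 in M3, above IFI6 (10.8) and below IRF3 (24.6).

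Beyond the 9 genes, 118 of 196 further genes on lists of this pathway could be tested, of which 12 were higher and 4 lower in M3 (13.6%), with a median log2 difference of 0.09. Over all genes the share passing was 15.8%.

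Ligands of the pathway were not detected. Of 22 interferon genes, 21 had 0 reads in all 4 libraries and the other had 1 read in all. A count of 0 allows up to 3 reads, which is 0.143 to 0.240 CPM at these depths, for counting error only. MX1, MX2, OAS2 and IFI44, which respond strongly to interferon in many cells, also had 0 reads in every library. Of 63 classical interferon-stimulated genes, 38 fell under the count filter, and 32 of those stayed below 10 reads in every library.

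**Figure D4:**
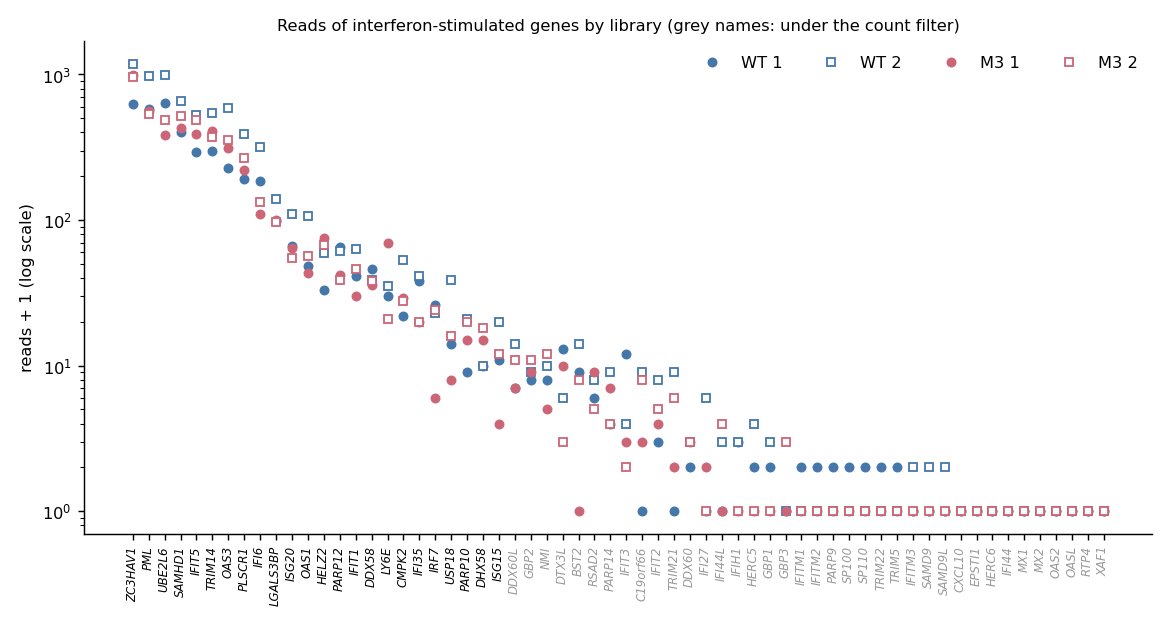
Reads plus 1 per library (log axis, raw counts not scaled to depth) for 62 classical interferon-stimulated genes, sorted by mean CPM, with the names of genes under the count filter in grey. ZC3HAV1 leads with 627 to 1184 reads, and many genes lie at or near 0 in all libraries.

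Among the 25 of these genes that were tested, 1 was higher and 2 were lower in M3, with a median of 0.02. The share passing was 12%, beside 15.8% of all genes tested. EIF2AK2 and ADAR are not on this list. HELZ2, a helicase that acts as a nuclear receptor coactivator, stood at 2.56 and 2.76 CPM in WT and at 5.77 and 4.68 CPM in M3 (log2 difference 0.97 ± 0.28, edgeR adjusted p = 0.0481). UBE2L6, the enzyme that conjugates ISG15 to proteins, stood at 50.7 and 47.4 CPM in WT and at 29.8 and 34.6 CPM in M3 (log2 difference -0.60 ± 0.14, adjusted p = 0.0314). The other gene that was lower was IFI6. Of the interferon-stimulated genes on this list that have a listed promoter, 35 of 47 held the response element letters. Of those, 10 were tested, and IFI6 was the 1 that passed. EIF2AK2, outside the list, also holds the letters and passed. Without M3 library 1 the adjusted p was 0.362 for HELZ2 and 0.354 for UBE2L6, and by DESeq2 it was 0.101 for HELZ2. With length and GC trends removed, UBE2L6 was at -0.23 (adjusted p = 0.238) and HELZ2 at 0.89 (adjusted p = 0.0861).

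None of the other kinases and receptor chains passed the test. JAK1, the kinase bound to IFNAR2, stood at 40.2 and 47.8 CPM in WT and at 57.6 and 53.8 CPM in M3 (log2 difference 0.34 ± 0.14, edgeR adjusted p = 0.124). TYK2, the kinase bound to IFNAR1, stood at 106 and 111 CPM in WT and at 101 and 94.9 CPM in M3 (log2 difference -0.15 ± 0.12, adjusted p = 0.400). In a list of 4 tested receptors and kinases of other interferons, none passed, and log2 differences ran from -0.76 to 0.84. Those of highest CPM, IFNGR1 and IFNGR2, were at -0.36 and 0.32. All 8 tested STAT and IRF factors, with 3 members among them, stayed above the threshold, including STAT3 at 0.09. Of all genes tested, 15.8% passed, so an absence of calls in lists this short says little about them.

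Among 17 sensors, 8 were tested, and EIF2AK2 was the only one that passed (12.5%, beside 15.8% of all genes tested). DHX9, a helicase that unwinds dsRNA, stood at 477 and 493 CPM in WT and at 567 and 554 CPM in M3 (log2 difference 0.21 ± 0.12, edgeR adjusted p = 0.253). DHX36, which resolves G-quadruplexes, had a log2 difference of 0.43 (adjusted p = 0.0736). Among 19 tested genes on a list of adaptors, ligases and kinases of sensor signalling, 2 were lower in M3 and none was higher (10.5% passing). These were MAVS and IKBKG, the regulatory subunit of the IKK complex, at 5.05 and 12.1 CPM in WT and at 3.66 and 3.26 CPM in M3 (log2 difference -1.34 ± 0.39, adjusted p = 0.0492). Without WT library 2 the difference of IKBKG was -0.55 (adjusted p = 0.200), and without the length and GC trends it was -1.06 (adjusted p = 0.204).

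Of 18 tested genes on a list of negative regulators of interferon signalling, 4 were higher in M3 and 1 was lower (27.8% passing, beside 15.8% of all genes tested). Not all of these genes act only to dampen the signal. OTUD4, a deubiquitinase, stood at 24.2 and 32.4 CPM in WT and at 49.8 and 46.4 CPM in M3 (log2 difference 0.76 ± 0.17, edgeR adjusted p = 0.0287). CYLD, which removes ubiquitin chains from signalling proteins, had a log2 difference of 0.69 (adjusted p = 0.0287), and PTPN11, the SHP2 phosphatase, of 0.59 (adjusted p = 0.0354). PIAS2, a SUMO ligase named here after its values were seen, had a log2 difference of 0.47 (adjusted p = 0.0458). OTUB1, a deubiquitinase, stood at 149 and 132 CPM in WT and at 96.5 and 104 CPM in M3 (log2 difference -0.49 ± 0.13, adjusted p = 0.0383). With length and GC trends removed, OTUD4 was at 0.27, PTPN11 at 0.20 and OTUB1 at -0.11, none past the threshold, and PIAS2 turned to -0.23 (adjusted p = 0.287). CYLD was at 0.52 (adjusted p = 0.0338) in that fit and at 0.44 (adjusted p = 0.0535) with the median transcript length, where PTPN11 was at 0.50 (adjusted p = 0.0376).

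All 20 genes for dsRNA binding and editing were tested, and 3 were higher in M3 and none lower, with a median of 0.25. The share passing was 15%, beside 15.8% of all genes tested. DICER1, the nuclease that cuts dsRNA into small RNAs, stood at 75.0 and 107 CPM in WT and at 183 and 156 CPM in M3 (log2 difference 0.90 ± 0.18, edgeR adjusted p = 0.0238). SON, a splicing factor with a dsRNA-binding domain, had a log2 difference of 0.62 (adjusted p = 0.0443). The third was EIF2AK2. With length and GC trends removed, DICER1 and SON were both at 0.24, with adjusted p of 0.136 and 0.147.

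The 3 other kinases of eIF2 did not pass the test. EIF2AK1, activated when heme is scarce, had a log2 difference of -0.12 (edgeR adjusted p = 0.463), EIF2AK4, activated by amino acid shortage, of 0.20 (adjusted p = 0.427), and EIF2AK3, activated by unfolded proteins, of 0.44 (adjusted p = 0.275). Among 18 genes of eIF2, its kinases and phosphatases, EIF2AK2, DNAJC3 and PPP1R15B were higher in M3 and none was lower. The share passing was 16.7%, beside 15.8% of all genes tested. DNAJC3, an inhibitor of EIF2AK2, had a log2 difference of 0.47 (adjusted p = 0.0496) and PPP1R15B, a phosphatase subunit for eIF2, of 0.45 (adjusted p = 0.0480). With the replicate block their adjusted p was 0.100 and 0.0859. With length and GC trends removed, DNAJC3 was at 0.02 (adjusted p = 0.940) and PPP1R15B at 0.15 (adjusted p = 0.315).

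Among 15 tested genes on a list of RNA helicases and nucleic acid decay factors, 3 were higher in M3 and 1 was lower. The share passing was 26.7%, beside 15.8% of all genes tested. Not all of these genes act on dsRNA. XRN1, the 5′ to 3′ exonuclease of the cytoplasm, stood at 27.2 and 45.4 CPM in WT and at 68.5 and 63.8 CPM in M3 (log2 difference 0.85 ± 0.22, edgeR adjusted p = 0.0366). TTC37, a subunit of the SKI complex, had a log2 difference of 0.61 (adjusted p = 0.0328), and DIS3, an exosome nuclease, of 0.48 (adjusted p = 0.0437). RNASEH2A, the catalytic subunit of RNase H2, stood at 112 and 87.4 CPM in WT and at 59.9 and 58.6 CPM in M3 (log2 difference -0.75 ± 0.15, adjusted p = 0.0240). With length and GC trends removed, XRN1 was at 0.11, TTC37 at -0.02 and DIS3 at -0.19, none past the threshold, and RNASEH2A was at -0.66 (adjusted p = 0.0147).

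**Figure D5:**
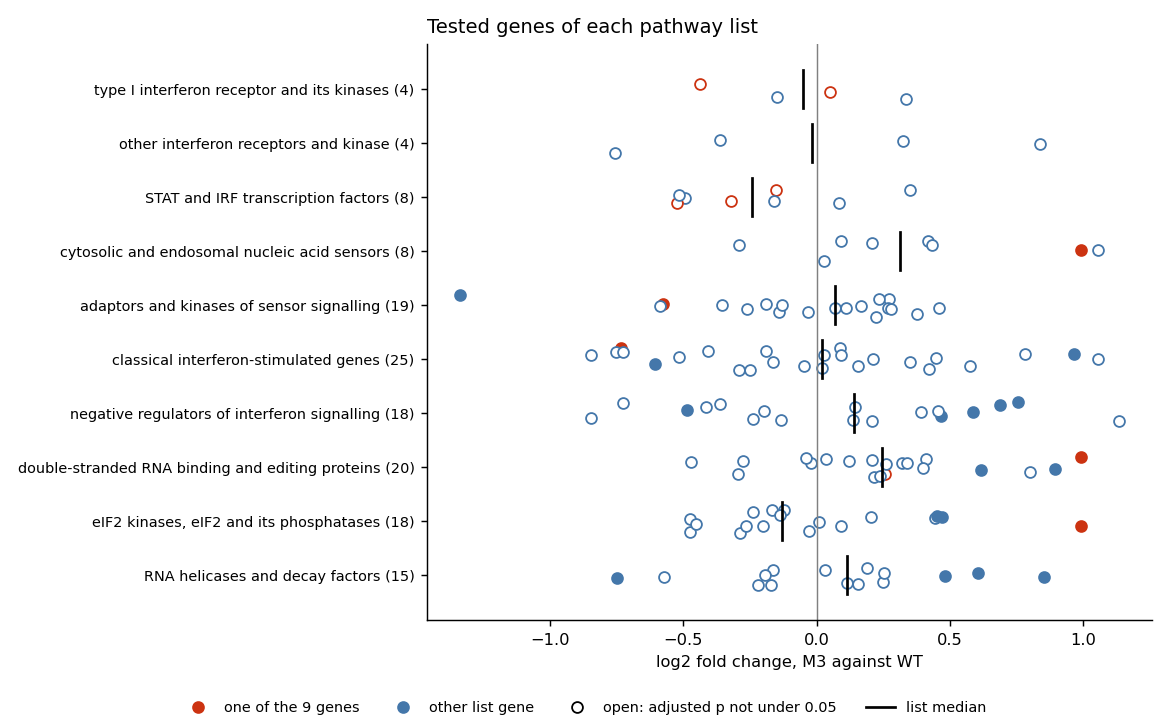
Log2 difference of M3 minus WT for every tested gene of each pathway list, with 1 circle per gene, filled where it passed the test and red for the 9 genes, and a line at each list's median. Vertical scatter within a list carries no value. The interferon-stimulated genes spread on both sides of 0 with a median of 0.02, and the dsRNA-binding list has a median of 0.25.

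By likeness of pattern over the 4 libraries, close pairs between the 9 genes and the pathway lists were IFNAR2 with PTPN6 and ADAR with ADARB1. Their root mean square distances of centred log2 CPM were 0.0119 and 0.0289. All points share the same 4 libraries and their groups, and no test was made of this likeness.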

How the data were processed

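Read counts per gene were deposited by the authors as 1 table per library, not normalised. The submitters used the hg38 build, HTSeq, HISAT2 2.1.0 and DESeq2, per the submitters' processing notes. For the counting, neither annotation nor strand setting is given in the sources used here. Reads assigned to no feature (23.2% to 27.5% of counted reads) and ambiguous reads (3.16% to 3.50%) did not enter library sizes or tests. Groups came from the labels. M3 was compared with WT over all genes with edgeR 4.0.16 (R 4.3.3): filterByExpr, TMM factors, a robust quasi-likelihood F test and Benjamini-Hochberg adjustment at 0.05, checked on simulated counts. CPM are TMM-normalised. With 2 libraries per group the smallest p of an exact permutation test is 0.333, so none was used. Intervals are 95%.

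Gene positions, transcript lengths, GC content and exon overlaps came from GENCODE on GRCh38, and promoters from RefSeq on GRCh38.p14, where 7 of the 9 members matched. The 17 alternatives were other scalings (upper quartile, median of ratios, total counts), filters, DESeq2 1.42.0, limma-voom (limma 3.58.1), a replicate block, removal of length and GC trends with splines of 5 degrees of freedom, and leaving out each library. The crossed block and the median transcript length were chosen after seeing the data.

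The members and lists were chosen with earlier results of these data known. Named are the members, IWS1, up to 4 changed genes per list by size or, where none changed, up to 2 of highest CPM, and the 3 closest pairs by likeness with a mean of at least 5 CPM. A few items that would be named are not reported here. OAS3, IFI27, BCL2L12, MX1, MX2, OAS2, IFI44, PIAS2, the other eIF2 kinases and the promoter windows were named after their values were seen.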

Additional observations from a re-analysis of the deposited data

Results flagged for a closer look

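Of all counted reads, 27.5% fell on no annotated feature in M3 library 1 and 25.6% in M3 library 2, above 23.3% and 23.2% in WT libraries 1 and 2. These reads enter no comparison of genes. The difference between the groups was not tested.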

How the results depend on the processing

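Each of the 9 genes was recomputed under 17 alternatives. EIF2AK2 passed in 15 of them, MAVS in 12, IFI6 in 11, IRF3 in 4, IFNAR2 in 2, ADAR in 1 and STAT2, IRF9 and IFNAR1 in none. The cause of the changes below was not tested. Against 2232 changed genes, total gene counts gave 1120 (76.4% of them higher, beside 58.0%, with the median of all genes shifted by 0.12 on the log2 scale), no filter 3945, the crossed pairing 5314, removal of length and GC trends 685 (43.5% higher), the same with the replicate block 1000 and with median transcript length 621. Leaving out 1 library gave 359 (without M3 library 1) to 6735 (without WT library 2), with 1064 without M3 library 2 and 3526 without WT library 1. Against 3 changed members, the same settings gave 1, 4, 5, 0, 1 and 1, and leaving out 1 library gave 1 to 6. Against 16 changed pathway genes beyond them, total counts gave 7, upper-quartile scaling 9, no filter 29, the crossed pairing 40, and the 3 trend removals 2, 3 and 4, and leaving out 1 library gave 1 to 57. The deviations of same-numbered libraries correlated at -0.144 across genes, which with 2 libraries per group does not settle whether the numbers pair them. A fit with the replicate block gave 2315 changed genes, 3 changed members and 13 pathway genes. IWS1 lay between 0.60 and 0.69 when 1 library was left out, with adjusted p of 0.215 without M3 library 1 and 0.138 without M3 library 2.

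Reversed directions were as follows. With 1 library left out, STAT2 ran from -0.30 to 0.0071 (without WT library 2), IFNGR2 from -0.14 (without WT library 1) to 1.15, and STAT3 from -0.017 (without M3 library 1) to 0.18. With the length and GC trends removed, alone and with the replicate block, IFNAR1 was at -0.34 and -0.34, STAT3 at -0.046 and -0.049, DHX9 at -0.00081 and -0.00017, DHX36 at -0.14 and -0.14, TTC37 at -0.019 and -0.019, DIS3 at -0.19 and -0.19, and PIAS2 at -0.23 and -0.23. With the median transcript length, ADAR was at -0.039, IFNAR1 at -0.43, DHX9 at -0.090, DHX36 at -0.0078, TTC37 at -0.066, DIS3 at -0.070 and PIAS2 at -0.051. IRF9, IFI6 and IFNAR2 were the members with the fewest reads, and the part of depth in the precision of each gene was not tested.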

Other observations

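Several pathway genes under the count filter had a few reads, given here as values. IFIH1, the sensor MDA5 that signals through MAVS, had 2 and 2 reads in WT and 0 and 0 in M3. TLR3, the endosomal dsRNA receptor, had 0 reads in all 4 libraries. CGAS, the sensor of cytosolic DNA, had 1 and 0 reads in WT and 0 and 1 in M3, and TMEM173, its adaptor STING, had 2 and 0 in WT and 0 in both M3 libraries. DDX58, the sensor RIG-I, was tested and had 45 and 38 reads in WT and 35 and 37 in M3.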
